A study of Mus musculus with 98 samples.

Results

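MedFb2a is a subtype of thymic fibroblast named in the deposited annotation of non-epithelial thymic stroma (NETS), and its cells were taken here by that label alone. The label was held by 3033 of the 36208 labelled cells of an age series of wild-type (WT) mice and by 1004 of 21451 cells of a second, newborn data set. The age series was made from live Ter119-CD45-EpCAM- thymic cells of embryos at E12.5 and E13.5 (1 library each) and of embryos at E16.5, newborns (P0) and mice 4 weeks old (W4), with 2 libraries at each of these ages. The newborn data hold live Ter119-CD45- cells of 3 mice labelled Tbx1+/-Crkl+/-, which carry 1 germline null allele of each gene in all tissues, and of 3 WT littermates, all at P0. Stromal populations sorted from WT mice at P0 and 4 weeks (6 libraries per population and age) were sequenced in bulk, and 4 of them were used here: gp38+CD26- and gp38+CD26+ fibroblasts, Ly51+gp38- mural cells and CD31+ endothelium.

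The thymus is built on a fibroblast network whose capsular and medullary parts differ. Medullary fibroblasts lie close to vessels and to medullary epithelium, make extracellular matrix, chemokines and growth factors, and have been linked to the presentation of self antigens to developing T cells. Sod3, which gives MedFb2a its working name, encodes the secreted superoxide dismutase that binds matrix and vessel walls. Pericytes (Pc), the mural cells of small vessels, share the filament protein desmin (Des) with these fibroblasts.

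Values are UMIs (unique molecular identifiers, 1 per captured transcript) summed over the MedFb2a cells of a library and scaled to a total of 1000000 (CPM), unless another label is named. MedFb2a cells had a median of 9246 to 13761 UMIs by library in the age series and 2567 to 5693 in the newborn data. Pairs of libraries shared 0 to 14 cell barcodes, and among MedFb2a cells 2 barcodes were shared in all. Some libraries stood apart. E12.5 held 18 MedFb2a cells and entered no test of genes, E13.5 and P0 replicate 1 had little or no RNA of a Y-linked gene that the other libraries of the age series had, and P0 replicate 1 held 228 cells labelled mesothelial where P0 replicate 2 held 7. The libraries differed by little more than counting at E16.5 (chi-square of 1.38 per degree of freedom over genes) and by more at P0 (3.49) and W4 (3.07). In the study's description the E12.5 and E13.5 cells were pooled over litters and those of later ages came from a pair of thymi per age, but the labels tie no library to a thymus, so p-values measure the spread between these libraries.

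MedFb2a took up a larger share of the NETS in each of the 6 libraries from E16.5 on than in the single libraries of E12.5 and E13.5. Its share of labelled NETS cells was 0.901% at E12.5 (exact binomial 95% interval 0.535 to 1.42), 3.67% at E13.5 (3.19 to 4.19), 9.71% and 9.58% at E16.5, 6.76% and 12.3% at P0, and 10.7% and 9.88% at W4. The means were 9.64% ± 0.0914 at E16.5, 9.53% ± 3.92 at P0 and 10.3% ± 0.592 at W4 (SD, n = 2 each). In a test of cell numbers over the 5 ages (edgeR quasi-likelihood test, 19 labels), the share changed with an adjusted p of 0.00403, and 16 of the 19 labels, MedFb2a included, passed. That test lends the single libraries of E12.5 and E13.5, where the low shares lie, the spread of the replicated ages. An exact permutation test over the same libraries gave p = 0.031, and 0.0024 is the smallest it allows. The fitted step from E13.5 to E16.5 was 1.40 on the log2 scale and is given as a value alone, since E13.5 is 1 library. The steps to P0 (-0.02, SE 0.292, adjusted p 0.988) and to W4 (0.11, SE 0.293, adjusted p 0.825) stayed within the spread between libraries. The P0 libraries lay on both sides of the other ages and decide how precise those last values are. Fractions of a digest depend on how each subtype is released and sorted, and adult but not younger thymi are described as depleted of CD45+ cells with beads before sorting, so age and preparation cannot be told apart.

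**Figure D1:**
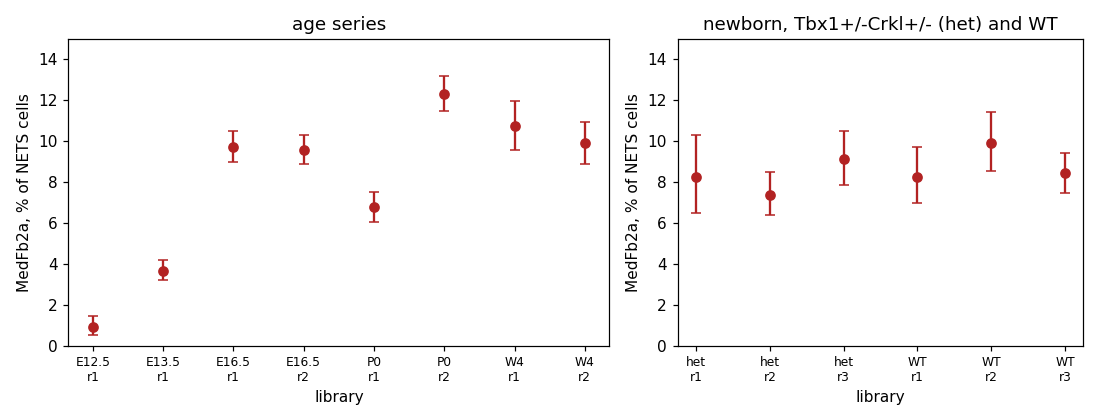
Share of MedFb2a among NETS cells (percent) in each library of the age series and of the newborn data. Points are libraries and bars are exact binomial 95% intervals, which cover counting error only. The share lies under 4% at E12.5 and E13.5 and between 6.76 and 12.3% in the libraries of later ages, and the newborn genotypes overlap.

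The label was checked against Sod3, Tmem176a and Cxcl16, the markers given with it, and against Tmem176b and Des. At W4 Sod3 was 1173 and 1250 CPM in MedFb2a, the highest of the labels in both libraries and above the next label, MedFb2b (569 ± 126 CPM, SD, n = 2). Tmem176a and Tmem176b, which encode membrane proteins of the MS4A-like family, stood second by mean among the 19 labels. Tmem176a was 1274 and 1347 CPM in MedFb2a against 1377 ± 24.7 in MedFb1b, and Tmem176b was 1931 and 2087 against 2254 ± 58.3. Cxcl16, a membrane-bound chemokine for T cells, was 97.2 and 100.4 CPM, with mesothelial cells at 96.9 ± 40.9 and MedFb1b at 90.1 ± 14.2. Des was 1133 and 1153 CPM, below vascular smooth muscle (1583 ± 107.7) and pericytes (1291 ± 18.5). Among the given markers, then, Sod3 separated MedFb2a from its neighbours at W4, whereas Tmem176a and Cxcl16 were shared with MedFb1b. These between-label values are descriptions, since the labels were made from the same cells.

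Tmem176a and Tmem176b lie head to head. In the Gencode annotation of GRCm38, Tmem176a spans chr6:48840919-48847071 on the forward strand and Tmem176b chr6:48833818-48841496 on the reverse strand, so 578 bases belong to both. RefSeq (GRCm38.p6) gives 2 promoter windows (250 bases before to 50 after a start) for Tmem176a and 3 for Tmem176b. The first listed of each is shown because both genes move together below, and the others were not searched. The bases that both shown windows hold, read from opposite strands, are in capitals.
Tmem176a, chr6:48841233-48841532, forward strand: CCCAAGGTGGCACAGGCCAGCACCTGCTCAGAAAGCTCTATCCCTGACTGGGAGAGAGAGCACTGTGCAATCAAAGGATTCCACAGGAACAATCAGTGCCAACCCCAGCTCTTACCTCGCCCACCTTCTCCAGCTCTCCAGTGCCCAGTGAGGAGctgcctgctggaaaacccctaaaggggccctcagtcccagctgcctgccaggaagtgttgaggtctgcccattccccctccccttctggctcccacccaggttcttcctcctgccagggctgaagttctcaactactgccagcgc
Tmem176b, chr6:48841088-48841387, reverse strand: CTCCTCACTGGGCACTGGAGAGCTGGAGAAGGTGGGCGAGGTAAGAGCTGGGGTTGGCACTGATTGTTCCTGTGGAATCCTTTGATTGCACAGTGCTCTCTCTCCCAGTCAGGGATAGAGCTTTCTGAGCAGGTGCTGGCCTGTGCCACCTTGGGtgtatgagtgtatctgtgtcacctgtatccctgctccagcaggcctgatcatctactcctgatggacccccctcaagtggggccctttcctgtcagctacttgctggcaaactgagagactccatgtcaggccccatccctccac
Searched on both strands, neither of these windows holds the letters GGANNTTCC (part of a kappaB-like motif), GAAANNGAA (part of an IRF-like motif) or TTCNNNGAA (a GAS-like motif), which 4.26%, 8.56% and 8.3% of the 32851 windows of the table hold. Sod3 (chr5:52363791-52371418, forward), Cxcl16 (chr11:70453983-70459984, reverse) and Des (chr1:75360329-75368579, forward) lie on other chromosomes.

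Every marker was lower in MedFb2a cells of E12.5 and E13.5 than at any later age, and higher at P0 than at E16.5 and at W4 than at P0. Among labels of at least 20 cells at E13.5, MedFb2a had rank 7 for Sod3, 15 for Tmem176a, 14 for Tmem176b, 16 for Cxcl16 and 2 for Des. Apart from Des, the markers did not set the label apart there. The 5 neural crest genes summed to 531 CPM at E12.5, 38.1 at E13.5 and 0.699 to 3.11 in later libraries. Whether the label marks the same subtype at E12.5 and E13.5 was not tested. Sod3 had no UMI at E12.5, 2.7 CPM at E13.5, 80.2 and 72.9 at E16.5, 289 and 217 at P0, and 1173 and 1250 at W4. The ages did not overlap, and the rise was 1.57 on the log2 scale from E16.5 to P0 (SE 0.12, edgeR adjusted p 3.3e-06) and 2.27 from P0 to W4 (SE 0.11). Cxcl16 was at 0 in E12.5 and E13.5, 11.9 and 9.53 CPM at E16.5, 27.5 and 24.6 at P0, and 97.2 and 100.4 at W4. Its increase was 1.12 and then 1.93 on the log2 scale (SE 0.15 and 0.11, edgeR adjusted p 0.00015 for the first). Tmem176a, present from E12.5, went from 69.3 and 36.97 CPM at E12.5 and E13.5 to 577 and 576 at E16.5, 907 and 920 at P0, and 1274 and 1347 at W4. Tmem176b had 166, 96.3, 871, 920, 1333, 1264, 1931 and 2087 CPM in the same 8 libraries. Both members of the pair rose at each step, by 0.52 and 0.51 for Tmem176a and by 0.39 and 0.62 for Tmem176b on the log2 scale. Des had 13.9, 53.9, 565, 571, 923, 858, 1133 and 1153 CPM, and its rises were 0.50 and 0.35. All 5 were above the threshold in both steps, where 10.5% of the 12629 genes tested rose from E16.5 to P0 and 21.5% from P0 to W4. The markers are genes known to be high in this subtype from data that include these W4 cells, so a rise to W4 is partly built into their choice and nothing is read from their count beside those shares. Both steps share the P0 libraries.

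**Figure D2:**
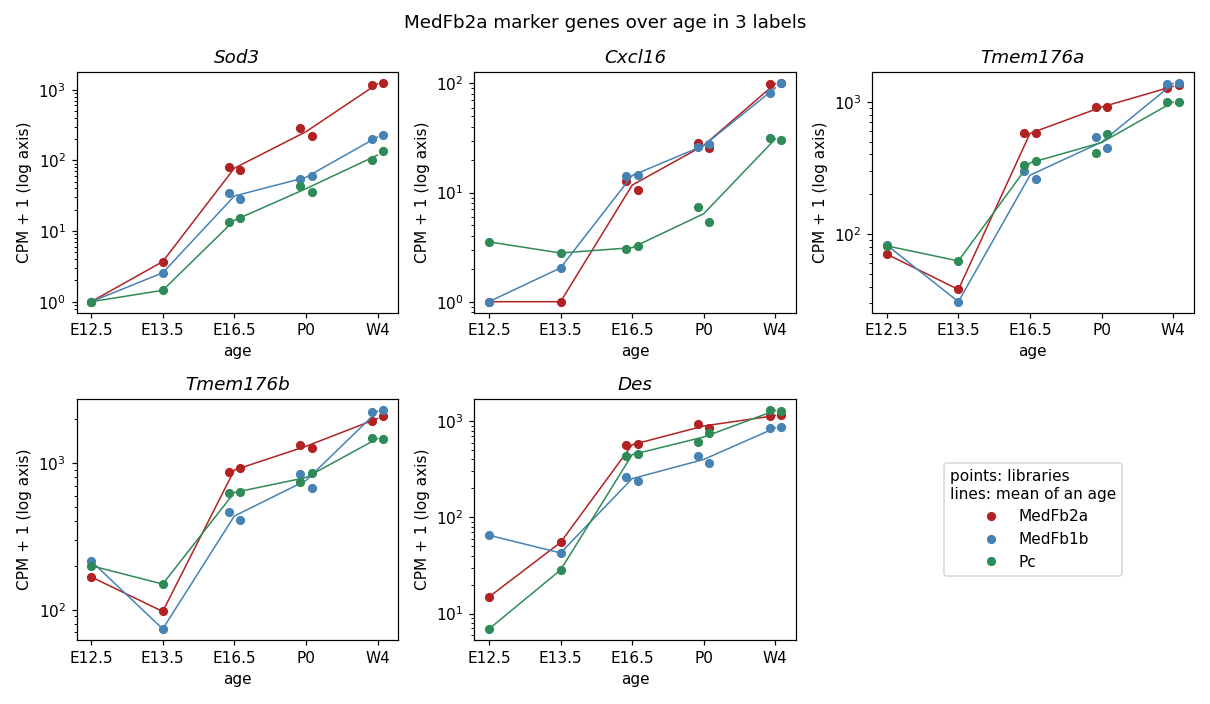
CPM + 1 on a log axis of the 5 marker genes over age in MedFb2a, MedFb1b and pericytes (Pc). Points are libraries and lines join the mean of each age. Among these labels Sod3 is highest in MedFb2a from E16.5 on, whereas Tmem176a, Tmem176b and Cxcl16 of MedFb1b reach the level of MedFb2a by W4.

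Cell by cell, more of the 5 markers were detected at later ages. At least 3 of the 5 markers had a UMI in 0 of 18 cells at E12.5, which allows a share of up to 16.7%, and in 12.6% of cells at E13.5, 91.2% at E16.5, 96.3% at P0 and 99.5% at W4. After each cell was thinned to 2000 UMIs, these shares were 0, 0.971, 39.7, 65.4 and 93.97%. Tmem176a, Tmem176b and Des alone can make up 3, and at W4 they had a UMI in 100, 100 and 97.1% of MedFb1b cells. In W4 pericytes these shares were 88.3, 95.0 and 96.3%, so having 3 markers does not single out MedFb2a. Whether the markers met in cells beyond their own shares was not tested. A Sod3 UMI was found in 3.4% of MedFb2a cells at E13.5, 37.1% at E16.5, 62.8% at P0 and 96.3% at W4 (0.485, 12.2, 29.8 and 79.1% after thinning). At W4 the share was 85.4% in MedFb2b (57.3% thinned), 75.6% in MedFb1b (28.2%), 51.5% in vascular smooth muscle (23.96%) and 21.8% in pericytes (10.1%). The capsular fibroblast labels lay between 67.9% (CapFb1b, 18.2% thinned) and 90.8% (CapFb2a, 50.8%). Capillary endothelium (EnC) had 8.45% at W4 (4.02% thinned) with a median of 5370 UMIs per cell against 13394 in MedFb2a. The background of the E13.5 library was not measured, and its share of 3.4% is not read as expression.

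At W4, 3257 genes had at least 50 CPM in MedFb2a in both libraries, and 84 of them were highest there of the labels with 20 cells or more. The 25 genes with the greatest ratio to the mean of the other labels were chosen by these W4 levels and are described without a test. Tnc, the matrix glycoprotein tenascin C, headed the order with 130.6 and 112.8 CPM, 11.03 times the mean of the other labels. Ctsc, which encodes the protease cathepsin C, had 444 and 396 CPM (9.57 times). Col6a5, a collagen VI chain, had 326 and 338 CPM (9.09 times), and the related Col6a4 and Col6a6 were also among the 25. Postn, which encodes the matrix protein periostin, had 4191 and 3981 CPM (8.30 times), and Serpine2, a secreted protease inhibitor, reached 5651 and 5664 CPM (5.93 times). Ltc4s, the enzyme that makes leukotriene C4, had 812 and 993 CPM with MedFb1b next at 694 ± 3.21.

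The same 25 genes did not all set MedFb2a apart from each neighbour. They also included Sod3, Tfpi2, Serpina3g, Thbs4, Egln3, Rnf19b, Serpina3n, Ccl19, Ltbp1, Csmd1, Has2, Qprt, Ltbp2, Prkg2, Mmp9 and Slc7a2. MedFb2a was the highest label in both libraries for 16 of them, MedFb2b came next for 9, and MedFb2a lay above MedFb2b in both libraries for 23. Pericytes had more Ccl19, a chemokine for cells with the receptor CCR7 (252 ± 38.4 CPM against 218 and 154.7). Slc7a2 was the last gene inside the 25 with a ratio of 4.17, and Pthlh the first outside with 4.15.

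Across 7961 to 8647 genes of at least 10 CPM, the summed MedFb2a profile was most like MedFb1b at W4 (Spearman rho 0.934 and 0.942 in the replicates), followed by MedFb2b (0.925 in both) and MedFb1a (0.92 and 0.931), whose order differed between the replicates. At P0 MedFb1a came first (0.94 and 0.945) and pericytes the fourth (0.916 and 0.923). At E16.5 pericytes and MedFb1a were nearly level, at 0.954 and 0.953 in replicate 1 and 0.953 and 0.955 in replicate 2. Each value compares sums from 1 library, which share its free RNA but differ in cells and UMIs. At W4 MedFb1b held 579 cells, MedFb1a 129 and MedFb2b 89. Pericytes had a median of 5030 UMIs per cell at W4 against 13394 in MedFb2a. The part of the size of the sums in these orders was not tested. Pericytes were not among the 4 nearest labels in either W4 library.

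From E16.5 to P0, fibrillar matrix, MHC class I and chemokine genes of MedFb2a mostly rose, while fetal programme genes fell more often than they rose. Of 12629 genes tested, 2411 changed (19.1%), 1322 up (10.5%) and 1089 down (8.62%). Without either E16.5 library 1088 or 1130 genes changed, and with DESeq2 933 did. Of 14 MHC class I genes 13 rose (median log2 change 0.70) and of 15 chemokines 10 (0.74). Of 15 fetal programme genes tested 10 fell and 2, Ptn and Mdk, rose (median -0.72), and of 16 immediate early and heat shock genes 4 heat shock genes fell and Junb rose (-0.13). Of the 19 fibrillar matrix genes 18 rose and none fell, with a median log2 change of 0.55. Postn went from 1518 and 1461 CPM to 3072 and 3130 (log2 change 0.91, SE 0.065, edgeR adjusted p 2.2e-06). Lum, a collagen-binding proteoglycan, went from 467 and 459 CPM to 875 and 863, and Col1a1, a chain of collagen I, from 734 and 787 to 1637 and 1463. In each the ages did not overlap. Of 8 genes described as antigens of medullary fibroblasts 7 rose, led by Col15a1, a collagen of basement membranes, from 100.9 and 109 CPM to 477 and 449 (log2 change 1.99, edgeR adjusted p 2.3e-08). That list was drawn up by the study from samples that include these, so its direction is not independent evidence.

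Of the 25 W4 profile genes, 23 were higher at P0 than at E16.5 and 1 (Egln3) was lower, where 10.5% of all genes rose. The labels were made from cells of these ages too and several of the genes were at a few CPM before W4, so nothing is read from that count. Thbs4, a thrombospondin of the matrix, was 22.0 and 27.9 CPM at E16.5 and 82.1 and 58.1 at P0. Tnc went from 16.4 and 23.98 to 48.0 and 45.5 CPM, and Ltc4s from 16.7 and 12.2 to 82.1 and 64.4. Egln3, which encodes an oxygen-sensing hydroxylase, went the other way, from 47.2 and 50.3 to 40.9 and 31.7 CPM.

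The largest increases from E16.5 to P0 among genes of at least 50 CPM were those of Angptl4, C3, Ly6a, Nr4a1, H2-K1, Ltc4s, Slc15a3, Enpp2, Col15a1 and Efemp1. Angptl4, a secreted inhibitor of lipoprotein lipase, had 4.53 and 3.93 CPM at E16.5, 58.8 and 57.1 at P0, and 3.11 and 3.96 at W4, so it was high at birth alone among these ages. C3, the central complement component, rose from 27.8 ± 3.07 CPM (SD, n = 2) to 234 and 170 (log2 change 2.70, edgeR adjusted p 5.1e-07). Ly6a differed more between the P0 libraries (85.7 and 25.3 CPM) than from the lower of them to E16.5 (9.37 and 7.29). The largest decreases were those of Hspb1, Igfbp2, Hspa1a, Hist1h1c, Dlk1, Fabp5, Cpa1, Hspa1b, Peg10 and Cdkn1c. Dlk1, a Notch-like surface protein of fetal tissues, fell from 3722 and 3713 to 1123 and 1771 CPM, and Cdkn1c, a cell cycle inhibitor, from 913 and 1010 to 330 and 553. The reads of Hspa1a and Hspa1b, which are close copies, cannot be divided with certainty.

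From P0 to W4 a large part of all genes changed, in both directions alike. Of 12629 genes tested, 5488 passed (43.5%), 2721 up (21.5%) and 2767 down (21.9%), with a median log2 change of 0.01. With DESeq2 2977 genes passed. Counts of a list have to be read against these shares, and a list near them says nothing of itself. The 25 profile genes were picked by W4 levels, so their rise in this step is partly built in. Those that belong to lists (Sod3, Ccl19, Postn, Ltbp1, Csmd1, Col6a5 and Mmp9) stay in the counts of their lists, and their values here and in the comparisons of labels are descriptions.

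MHC class I genes rose throughout MedFb2a from P0 to W4. All 14 listed members, which encode heavy chains, the light chain, the peptide pump and proteasome and loading factors, were higher, with a median log2 change of 1.45. H2-T23, a non-classical heavy chain, had 40.5, 33.5, 118, 102.8, 544 and 490 CPM from E16.5 to W4 (log2 change from P0 2.23, edgeR adjusted p 1.3e-09). H2-D1 and H2-K1, classical heavy chains, had 627 and 453, and 391 and 251 CPM at P0 and reached 3602 and 3410, and 2777 and 2700 at W4. B2m, the light chain, went from 1128 and 834 to 3518 and 3223. No age overlapped another from E16.5 on, and 13 of the 14 had also risen from E16.5 to P0. H2 genes are close relatives, and 3′ reads may be divided between them.

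RNA of blood cells also rose at W4 and was measured beside these genes. The 10 haematopoietic markers, from Ptprc to Rag1, summed to 47.4 and 23.2 CPM at P0 and 98.2 and 51.0 at W4 in MedFb2a, and 5 of the 7 tested rose. Pericytes, capillary endothelium, smooth muscle and the CapFb1b and MedFb1b fibroblasts had sums of the same order at W4, 48.4 to 158.3 CPM. The 5 erythroid genes summed to 107.9 and 86.9 CPM at P0 and 1268 and 1523 at W4, and all 5 rose. MHC class II genes, which mark antigen-presenting cells, summed to 79.8 and 71.1 CPM at W4, and the 6 tested rose, but pericytes (160.1 and 131.8) and capillary endothelium (264 and 133) had more. The part of this RNA in the rise of MHC class I genes and in the other changes was not tested.

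Cytokines and growth factors of MedFb2a rose more often than they fell, 12 of 21 up and 2 down with a median of 0.90. Flt3l, a ligand that dendritic cells need, had 5.31 and 7.01 CPM at E16.5, 8.23 and 9.77 at P0 and 106.9 ± 8.62 (SD, n = 2) at W4, a rise of 3.52 on the log2 scale (SE 0.14, edgeR adjusted p 7.4e-10). A Flt3l UMI was found in 9.22% of cells at P0 and 61.7% at W4 (2.06 and 17.9% thinned), against 10.4% in capillary endothelium at W4 (4.22% thinned). Tnfsf13b, the B-cell factor BAFF, went from 7.38 and 5.17 to 43.02 and 48.2 CPM. Il34, a ligand of the CSF1 receptor, went from 225 and 242 to 476 and 490, and Bmp4 from 13.6 and 20.2 to 51.3 and 48.0. Il6 fell from 37.2 and 23.5 to 7.77 and 13.05 CPM. Il7, needed by thymocytes, rose by 2.71 on the log2 scale to 10.6 and 11.2 CPM at W4, and Tnfsf11 (RANKL) by 2.74 to 2.59 and 2.8. A Tnfsf11 UMI was found in 1.26% of cells at E16.5, 0.392% at P0 and 1.34% at W4 (0.168, 0.0983 and 0.1675% thinned). Its values lie near the floor, and W4 was about level with E16.5.

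Chemokines went both ways, 8 of 15 up and 5 down, so their median of 0.71 hides a split. Cxcl10, an interferon-induced ligand of CXCR3, had 881 and 1138 CPM at P0 and 59.6 and 29.8 at W4 (log2 change -4.53, SE 0.21, edgeR adjusted p 2.3e-09). Cxcl1, a neutrophil attractant, fell from 967 and 887 to 93.8 and 154 CPM. Cxcl16, described above, and Cx3cl1, the membrane chemokine fractalkine (13.3 and 12.8 to 63.8 and 56.4 CPM), rose. Ccl19 went from 41.2 and 28.9 to 218 and 154.7 CPM, and a Ccl19 UMI was found in 17.1% of cells at P0 and 55.9% at W4 (6.49 and 21.9% thinned). From E16.5 to P0, 10 of the 15 had risen and none had fallen, Cxcl10 and Cxcl1 included.

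Immediate early genes, which respond within minutes to stimuli that include tissue digestion, were lower at W4. Of 16 immediate early and heat shock genes 12 fell and 2 rose, with a median of -1.26. Zfp36, whose protein destabilises cytokine mRNAs, had 805 and 723 CPM at P0 and 90.4 and 107.4 at W4, and the transcription factor gene Atf3 463 and 404 against 52.3 and 59.6. The heat shock genes Hspa1a and Hspa1b rose, Hspa1a from 333 and 325 to 1290 and 1843 CPM. In the lymphotoxin and NF-kB list 4 of 14 rose and 6 fell (median -0.04), Nfkbia, the inhibitor of NF-kB, from 1038 and 1117 to 394 and 365 CPM, and Tnfaip3, another inhibitor, upward from 33.2 and 30.9 to 97.4 and 89.9. Glucocorticoid and metal response genes fell in 5 of 9 cases and rose in 1 (median -1.45), the metallothionein Mt1 from 384 and 419 to 80.9 and 114.9 CPM. The fall of Cxcl10 and Cxcl1 moved with these lists, and their part in it was not tested.

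Genes of pericyte identity fell in MedFb2a over the same step. Of 12 listed genes 9 fell and 1 rose (Pdgfrb), with a median of -0.67, where 21.9% of all genes fell. Higd1b, a mitochondrial protein gene used to mark pericytes, had 269 and 262 CPM at E16.5, 177 and 190 at P0 and 78.5 and 60.6 at W4 (log2 change from P0 -1.42, SE 0.10, edgeR adjusted p 1.9e-07). Kcnj8 and Abcc9, the subunits of a potassium channel of mural cells, went from 587 and 653 to 268 and 183.6 CPM and from 330 and 347 to 243 and 199. Cspg4, the proteoglycan NG2, went from 47.7 and 53.9 to 18.7 and 16.8. Of the 12, 7 had already fallen from E16.5 to P0 and 1 (Rgs5) had risen. Rgs5, a regulator of G protein signals, was 650 and 387 CPM at W4, and Notch3 164 and 133, and neither passed from P0 to W4.

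Contractile genes showed no common direction, with 2 of 12 up and 4 down from P0 to W4 (median -0.08). Tpm2 and Tpm1, which encode tropomyosins, fell from 326 and 322 to 157 and 151.2 CPM and from 583 and 558 to 321 and 256. Tagln, an actin-binding protein of smooth muscle, rose from 172.05 and 166 to 453 and 296. Acta2 (292 and 260 CPM at P0, 361 and 247 at W4) and Myh11 (82.9 and 68.0, 104 and 76.9) did not pass.

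**Figure D3:**
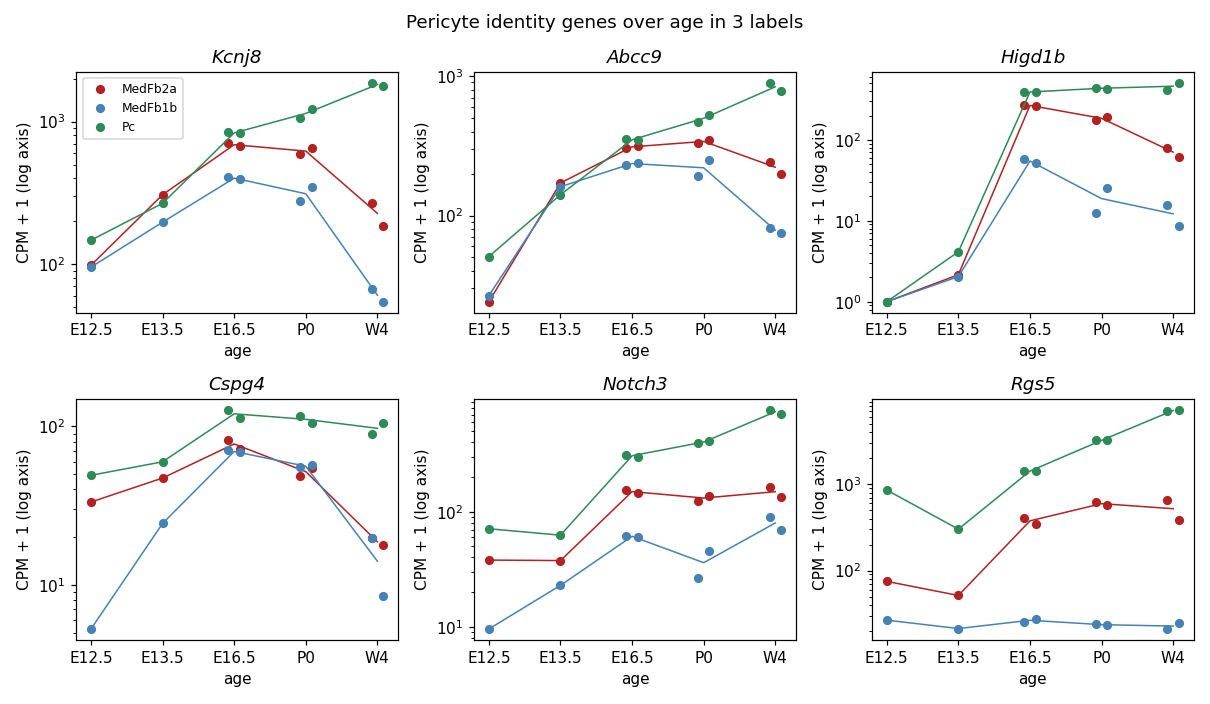
CPM + 1 on a log axis of 6 pericyte identity genes over age in MedFb2a, MedFb1b and pericytes (Pc). Points are libraries and lines join the mean of each age. Kcnj8, Abcc9 and Higd1b of MedFb2a lie near pericytes at E16.5 and part from them by W4, while Rgs5 stays between the other labels.

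Fibrillar matrix genes rose more often than they fell from P0 to W4. Of 19 fibrillar matrix genes 12 rose, the profile gene Postn included, and 3 fell (median 0.39). Bgn and Dcn, small proteoglycans, went from 1495 and 1540 to 4360 and 4569 CPM and from 2792 and 2876 to 8845 and 10145. Fn1, which encodes fibronectin, fell from 436 and 491 to 211 and 180. Of 14 basement membrane genes tested 7 rose and 4 fell (median 0.28), Hspg2, the proteoglycan perlecan, upward from 120 and 117 to 280 and 301 CPM, and Col4a1, a collagen IV chain, downward from 1719 and 2012 to 1147 and 1004. Among the 8 medullary fibroblast antigens 6 rose and 1 fell, but 4 of the 8 are profile genes chosen at W4, so nothing is read from that count. Ltbp1, which holds latent TGF-beta, went from 62.5 and 40.1 to 611 and 613 CPM and Csmd1, a complement inhibitor, from 21.01 and 8.66 to 204 and 169.

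Antioxidant genes rose and fell at shares near those of all genes, 21.5% up and 21.9% down, so nothing is read about the class. Of 21 listed genes 4 rose, Sod3 itself included, and 4 fell, with a median of 0.02. Besides Sod3, the plasma glutathione peroxidase Gpx3 (82.9 and 102 to 439 and 392 CPM), Gpx1 (235 and 217 to 392 and 456) and Gstm1 (59.6 and 106 to 178 and 188) rose. The intracellular superoxide dismutases Sod1 (45.4 and 46.6 CPM at P0, 51.6 and 49.2 at W4) and Sod2 (89.2 and 109, 93.3 and 89.5) did not pass. Prdx2, Txn1, Prdx6 and Cat fell, by 0.41, 0.28, 0.29 and 0.33 on the log2 scale.

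Most fetal programme genes fell, some of them to a few CPM. Of 15 tested genes 14 fell and 1 rose (Sox4), with a median of -2.99. Igf2bp1 had no UMI at W4 and was 34.1-fold lower there than at P0 against a floor of 3 UMIs over both W4 libraries. The counting interval of its ratio starts at 27.3. The median is the same when Igf2bp1 is set at that floor. H19, an imprinted non-coding RNA, had 997 and 1015 CPM at P0 and 2.07 and 4.43 at W4, and Mest, also imprinted, 574 and 621 against 4.15 and 5.59. Dlk1 was 1123 and 1771 CPM at P0 and 0.518 and 0.932 at W4 (fitted log2 change -10.90, SE 0.33, edgeR adjusted p 8.1e-11). The growth factor genes Ptn and Mdk fell by 0.95 and 1.51 on the log2 scale. Of 15 cell cycle genes 8 fell and none rose (median -0.81), Hmgb2 from 190 ± 15.5 to 84.2 ± 1.13 CPM (SD, n = 2 each) and the replication gene Mcm5 from 20.4 and 15.6 to 3.37 and 2.56.

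The remaining lists had members that moved both ways or few members that could be tested. Interferon-stimulated genes rose in 8 of 16 cases and fell in 2 (median 0.41), Ifi27l2a from 281 and 166 to 915 and 737 CPM and Bst2 from 339 and 307 to 482 and 401. Vascular paracrine factors rose in 4 of 13 cases and fell in 6 (median -0.33). Of 10 capsular fibroblast genes tested 5 rose and 3 fell (median 0.69), Clec3b from 38.6 and 36.0 to 284 and 366 CPM and Dpt from 58.2 and 25.97 to 658 and 604. Of other cell types, 1 of 6 endothelial genes fell (Emcn), 1 of 3 epithelial genes rose (Krt18), none of 4 neural crest genes passed, and no mesothelial gene of 5 was high enough to test.

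**Figure D4:**
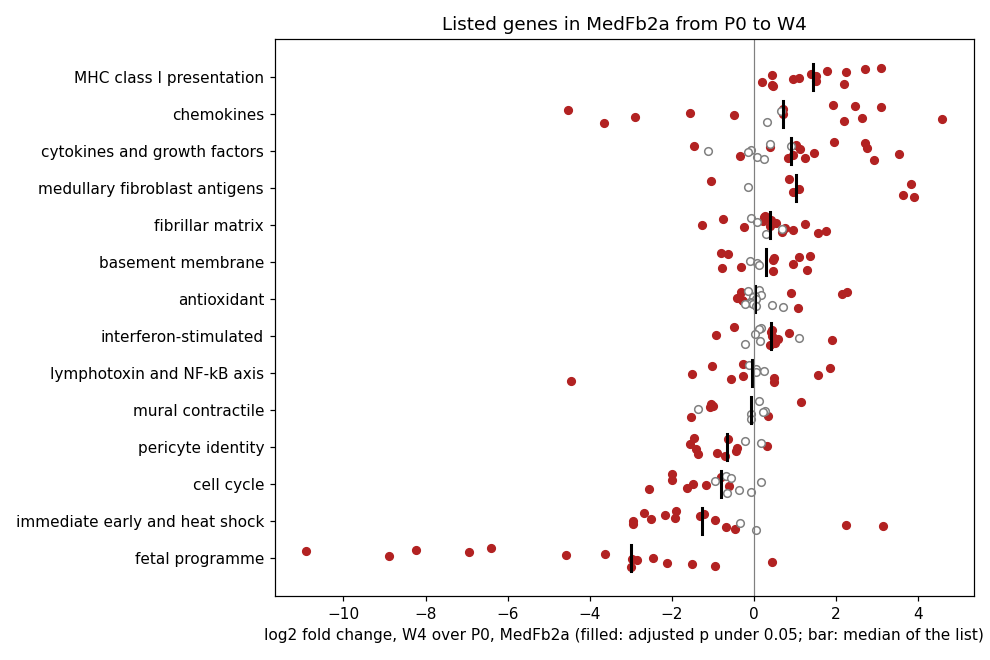
Log2 fold change from P0 to W4 in MedFb2a of the genes of 14 lists. Points are genes, filled where the adjusted p is under 0.05, and black bars are list medians. The 14 MHC class I genes lie to the right of 0 and 14 of 15 fetal programme genes to the left, while chemokines and antioxidant genes lie on both sides.

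Chosen by size rather than by list, the greatest increases from P0 to W4 were those of Mmp3, H2-Q6, Serpina3n (a profile gene), Clu, Csf2rb, Csf2rb2, Cilp, Nfasc, Gas6 and Ace. Mmp3, the matrix protease stromelysin 1, had 1 UMI in the P0 libraries and 139.2 and 123.95 CPM at W4, a ratio of 1401 with a counting interval of 251 to 55397. Serpina3n, a secreted inhibitor of serine proteases, went from 1.99 and 3.77 to 222 and 225 CPM, and Clu, the secreted chaperone clusterin, from 7.1 and 2.65 to 202 and 283. Csf2rb, the common beta receptor chain for IL-3, IL-5 and GM-CSF, went from 3.98 and 2.37 to 150 and 190.6 CPM, and its close copy Csf2rb2 from 0.852 and 1.54 to 65.3 and 80.6, with reads that may be divided between them. Gas6, a ligand of TAM receptors, went from 8.8 and 2.79 to 194 and 198 CPM. The ages were far apart in each of these genes.

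The greatest decreases included those of Dlk1, Agtr2, Agt, H19, Mest, Ren1, Cdo1, Plagl1 and Cxcl10. Agt encodes angiotensinogen and had 91.4 and 111 CPM at P0 and 0 and 0.46598 at W4, a ratio of 425 with a counting interval of 117 to 3513. Ren1, the protease renin, had 10.9 and 22.0 CPM at E16.5, 80.9 and 59.8 at P0 and 1.04 and 2.33 at W4. Agtr2, an angiotensin receptor, fell from 67.6 and 67.3 to 0 and 0.233 CPM (ratio 549, counting interval 98.3 to 21725). Ace, which makes angiotensin II, rose from 1.99 and 1.26 to 60.4 and 44.97. Ace alone of these 4, all among the genes chosen by size, was higher at W4.

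To ask which of these changes differed from those of neighbouring subtypes, the change from P0 to W4 was compared between labels within libraries. Against MedFb1b, the label with the highest correlation at W4, 1096 of 12070 genes changed to a different degree (9.08%). Of these, 455 had the greater rise or smaller fall in MedFb2a and 641 the reverse. DESeq2 gave 222 such genes, and a fit without the library block 460. The labels were made from the expression of these cells. Of the markers, Tmem176a (log2 difference -0.94, SE 0.079, edgeR adjusted p 1.3e-07), Tmem176b (-0.92) and Des (-0.71) rose less in MedFb2a. MedFb1b went from 543 and 448 to 1360 and 1395 CPM of Tmem176a. Sod3 rose in MedFb1b from 52.9 and 60.0 to 200.3 and 227 CPM, and its difference of 0.41 (SE 0.12, edgeR adjusted p 0.042) was 0.09 without P0 replicate 2 and no longer passed. The MedFb2a level was higher in every library, but a greater Sod3 rise than in MedFb1b rests on that library.

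Over all genes, 5.31% differed downward and 3.77% upward in MedFb2a against MedFb1b. Of the 14 MHC class I genes 10 rose less in MedFb2a than in MedFb1b and none more (median difference -0.65). H2-K1 of MedFb1b went from 142.9 and 64.7 to 1559 and 1641 CPM, below MedFb2a at both ages. Of 15 chemokines 8 differed downward and 1 upward, Cxcl12, a chemokine of many stromal cells, by -1.52 and Ccl11 by -1.15. Of 16 basement membrane genes 8 also differed downward and 1 upward, Sparc and Col4a1 (-0.93) first. By size, the genes with the largest differences included Igfbp2, Ltbp2, Thbs4, Id4, Pthlh, Clu, Samd5, Nkd2, Gfra2 and Ahr with positive and Ifi205, Prss23, Ren1, Cxcl14, Ccl19, Tspan15, Igfbp5, Cfb and Apold1 with negative differences. Gfra2, a receptor subunit for GDNF family ligands, rose from 17.9 and 15.6 to 123 and 144.2 CPM in MedFb2a and from 33.1 and 33.2 to 54.8 and 61.5 in MedFb1b. Nkd2, an inhibitor of Wnt signals, went from 23.3 and 28.5 to 117 and 104 CPM in MedFb2a and from 34.1 and 40.0 to 33.4 and 33.2 in MedFb1b. Igfbp5, an IGF-binding protein, fell from 364 and 439 to 80.3 and 82.01 CPM in MedFb2a and was 191.8 and 155.96, then 214 and 194, in MedFb1b. Ltbp2 and Cxcl14 turned direction without P0 replicate 1.

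Against pericytes, 1949 of 12106 genes changed to a different degree (16.1%), 1137 upward in MedFb2a and 812 downward, while DESeq2 gave 603 and a fit without the library block 1259. Pericyte identity genes parted, with 10 of 12 lower in the difference and none higher (median -0.98), where 6.71% of all genes differed downward. The study identified pericytes by Kcnj8, and the labels were made from these cells. A lower difference in such genes is therefore partly built into their choice. Kcnj8 went from 1053 and 1230 to 1873 and 1772 CPM in pericytes while it fell in MedFb2a (log2 difference -1.99, SE 0.13, edgeR adjusted p 1.2e-08), and Abcc9 from 468 and 526 to 893 and 779 (-1.20). Fibrillar matrix genes differed upward in 12 of 19 cases and never downward, where 9.39% of all genes did. Postn of pericytes went from 1399 and 1484 to 654 and 574 CPM, Lum from 101.3 and 91.6 to 33.8 and 36.4, and both rose in MedFb2a. Cytokines differed upward in 7 of 20 cases and downward in 1, Kitl, the KIT ligand. Flt3l of pericytes was 4.16 and 9.32 CPM at P0 and 16.48 and 9.77 at W4.

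Of 14 MHC class I genes 6 rose more in MedFb2a than in pericytes and 1 less, B2m by 0.82 and H2-D1 by 0.47. Sod3 rose more as well (log2 difference 0.85, SE 0.14, edgeR adjusted p 0.00042), from 42.5 and 34.9 to 98.9 and 136.7 CPM in pericytes. Des rose less (-0.39, edgeR adjusted p 0.036), a call that did not pass without P0 replicate 1 (-0.18). By size, the upward genes were Ltbp2, Col26a1, Clu, Cpxm1, Ntng1, F3, Serpina3n, Gas6, Qprt and Col6a6, and the downward genes included Dlk1, Agt, Ednrb, H19, Kcnk3, Mapt, Hcn2, Cdh6 and Ephx3. Ednrb, an endothelin receptor, was 135.2 and 128 CPM at P0 and 18.4 and 13.51 at W4 in MedFb2a but 88.2 and 104, then 200.3 and 219, in pericytes. Cpxm1, a carboxypeptidase-like matrix protein, was 60.5 and 46.2, then 574 and 646 CPM in MedFb2a, and 16.6 and 20.4, then 10.6 and 13.0, in pericytes.

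In newborns, MedFb2a held like shares of NETS in both genotypes and few genes differed. The share was 8.24, 7.38 and 9.11% in Tbx1+/-Crkl+/- mice and 8.26, 9.91 and 8.42% in WT, which overlap. The log2 difference was -0.10 (SE 0.188, edgeR adjusted p 0.75), a 2-sided exact permutation test gave p = 0.4, and 0.1 is the smallest that 3 against 3 allow. A share is no cell number, and the study counted fewer cells in the major NETS populations of newborn mutants. By Fisher tests over cells it also reported lower relative numbers of several capsular and medullary fibroblast subtypes. Crkl gave 9 to 27 UMIs per library and did not pass (47.5, 19.97 and 18.4 CPM against 24.4, 18.6 and 16.4 in WT, log2 difference 0.39, SE 0.41, edgeR adjusted p 0.87). Tbx1 had 1 UMI in 1 library. Which part of either transcript the null alleles lack is not given in the sources used here, so these 3′ counts do not check the labels.

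Of 7297 genes tested, 4 passed between the genotypes (0.0548%), 3 upward in Tbx1+/-Crkl+/- (0.0411%) and 1 downward (0.0137%), and 499 had an unadjusted p under 0.05. Zbtb16, a transcription factor gene induced by glucocorticoids, was 61.8, 49.03 and 63.2 CPM in Tbx1+/-Crkl+/- and 4.44, 6.63 and 20.1 in WT (log2 difference 2.10, SE 0.38, edgeR adjusted p 0.027). Gmpr, GMP reductase, was 71.3, 39.9 and 42.8 against 8.87, 14.6 and 12.2 CPM (1.94). Slc46a2, a transporter of cortical thymic epithelium, was 99.8, 138 and 57.1 against 26.6, 35.8 and 37.2 CPM (1.51). Igfbp5 was 90.3, 102 and 102 against 355, 269 and 180 CPM (-1.41). Leaving out single libraries gave 0 to 13 calls, none without WT replicate 2, so these 4 rest on few libraries.

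The 4 genes had RNA in other labels too. Gmpr was 34.8 to 43.1 CPM in pericytes of Tbx1+/-Crkl+/- and 14.1 to 18.4 in WT, and it was higher in cortical epithelium of both genotypes, at 133.8 to 359 CPM. Zbtb16 was 66.8 to 121 CPM in pericytes of Tbx1+/-Crkl+/- and 10.3 to 22.5 in WT, and Igfbp5 of smooth muscle 523 to 665 against 799 to 1124. Slc46a2 had 730 to 1032 CPM in the cortical epithelium of both genotypes and was also present in capillary endothelium at 87.4 to 171, and epithelial cells made up 48.1, 48.3 and 39.9% of the cells of Tbx1+/-Crkl+/- libraries and 28.0, 43.7 and 41.7% in WT. In MedFb2a the epithelial genes Epcam, Krt8 and Krt18 had log2 differences of 0.85, 0.81 and 0.73, and H2-Ab1, also made by epithelium, 0.93, none of which passed adjustment (edgeR adjusted p 0.46 to 0.61). The part of epithelial RNA in the Slc46a2 and Gmpr differences was not tested. None of the 5 markers passed. Sod3 was 57.01, 61.7 and 65.2 CPM in Tbx1+/-Crkl+/- and 144.2, 90.2 and 120 in WT. These groups did not overlap, but the difference of -0.92 (SE 0.27) did not pass adjustment over all genes (unadjusted p 0.0016, edgeR adjusted p 0.46). Over the 25 gene lists, with 0 to 19 genes tested in each, Zbtb16 was the single call.

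The sorted populations gave MedFb2a markers a readout without single-cell labels. Whether their animals differ from those of the single-cell libraries is not given in the sources used here. In bulk, fewer cells of a type and less RNA per cell cannot be told apart. W4 gp38+CD26+ replicate 2 held 25702 gene counts and was kept in the fits unless its omission is stated. In gp38+CD26- fibroblasts Sod3 had a lowest, median and highest level of 310, 384 and 449 CPM at P0 and 4061, 4916 and 6026 at 4 weeks. At 4 weeks the gp38+CD26+ fibroblasts had 610 to 940 CPM without the shallow library, the Ly51+gp38- mural cells 817 to 1236 and CD31+ endothelium 60.8 to 154. The gp38+CD26- libraries lay above all others.

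At 4 weeks gp38+CD26- exceeded gp38+CD26+ in 4 of 5 markers, where 5.98% of 13662 genes differed, 3.87% upward and 2.11% downward. The shallow library is in this fit, and without it 633 genes were higher and 467 lower instead of 529 and 288. Sod3 differed by 2.80 on the log2 scale (SE 0.47, edgeR adjusted p 0.00036), Tmem176a by 2.65, Tmem176b by 2.16 and Des by 3.68, and without that library by 2.56, 2.58, 2.17 and 3.61 in the same order. Cxcl16 did not pass (1.01, SE 0.40, edgeR adjusted p 0.17), at 53.0 to 92.7 against 19.2 to 77.8 CPM (lowest to highest of 6 libraries) or 19.2 to 58.5 without the shallow library. Against Ly51+gp38- cells 4 of 5 were higher, where 9.41% of all genes were higher and 6.89% lower, Sod3 by 2.28, Cxcl16 by 2.09, Tmem176a by 1.43 and Tmem176b by 1.27. Des did not pass (-0.56, edgeR adjusted p 0.73) at 413 ± 46.01 and 630 ± 91.8 CPM (SD, n = 6). The libraries carry the prefix TXCK or DFCK, whose meaning is not given in the sources used here, and within DFCK Sod3 differed by 3.08 from gp38+CD26+ and by 2.23 from Ly51+gp38- without passing.

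Over all genes, 3.87% were higher and 2.11% lower in gp38+CD26- than in gp38+CD26+ cells. Against Ly51+gp38- cells these shares were 9.41% and 6.89%. Of the 25 W4 profile genes, 15 were higher and none lower than in gp38+CD26+ cells, with a median of 2.80. Against Ly51+gp38- cells 14 were higher and none lower (2.28). These genes were chosen for W4 levels above the other labels, so higher levels here are partly built into their choice. Pericyte identity genes lay between, with 7 of 12 higher than in gp38+CD26+ cells and 9 of 12 lower than in Ly51+gp38- cells (medians 3.65 and -2.79). The study places pericytes in the Ly51+gp38- gate, so levels lower than there are partly built into the choice of these genes. MHC class I genes were higher in 7 of 14 and 11 of 14 cases. The study describes the gp38+CD26- gate as mainly medullary fibroblast subtypes together with CapFb1 cells. Which labels it holds was not resolved here.

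From P0 to 4 weeks the gp38+CD26- population changed in 2987 of 12279 genes (24.3%), 12.9% upward and 11.5% downward, with a median of -0.09. All 5 markers rose, Sod3 by 3.84 on the log2 scale (SE 0.14, edgeR adjusted p 1.0e-09), Tmem176a by 2.27, Cxcl16 by 2.10, Tmem176b by 1.84 and Des by 1.01. Tmem176a went from a median of 202 (127.5 to 253) to 824 (740 to 1029) CPM, and the ages did not overlap. All 13 MHC class I genes tested rose (median 2.70), 10 of 13 fetal programme genes fell, and 5 of 12 pericyte identity genes fell while 2 rose. Other lists went another way than in MedFb2a. Of 19 fibrillar matrix genes 4 rose and 6 fell (median -0.30), Col1a1 changing by -0.80 on the log2 scale (SE 0.15, edgeR adjusted p 0.0011) where it rose by 0.27 in MedFb2a. Of 15 chemokines 7 rose and 1 fell, Ccl11 rising by 1.29 where MedFb2a had -0.48, and Cxcl10 did not pass (-0.91, edgeR adjusted p 0.20). These differences between the data sets were not tested. Of 21 antioxidant genes 12 rose and 1 fell, where MedFb2a had 4 each way. Of the 25 W4 profile genes 18 rose and 1, Serpina3g, fell. Pdpn, which encodes the gate marker gp38, itself rose by 2.27 on the log2 scale in MedFb2a from P0 to W4 (edgeR adjusted p 3.6e-07). Whether MedFb2a cells entered the gp38+CD26- gate to a like extent at both ages was not tested.

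**Figure D5:**
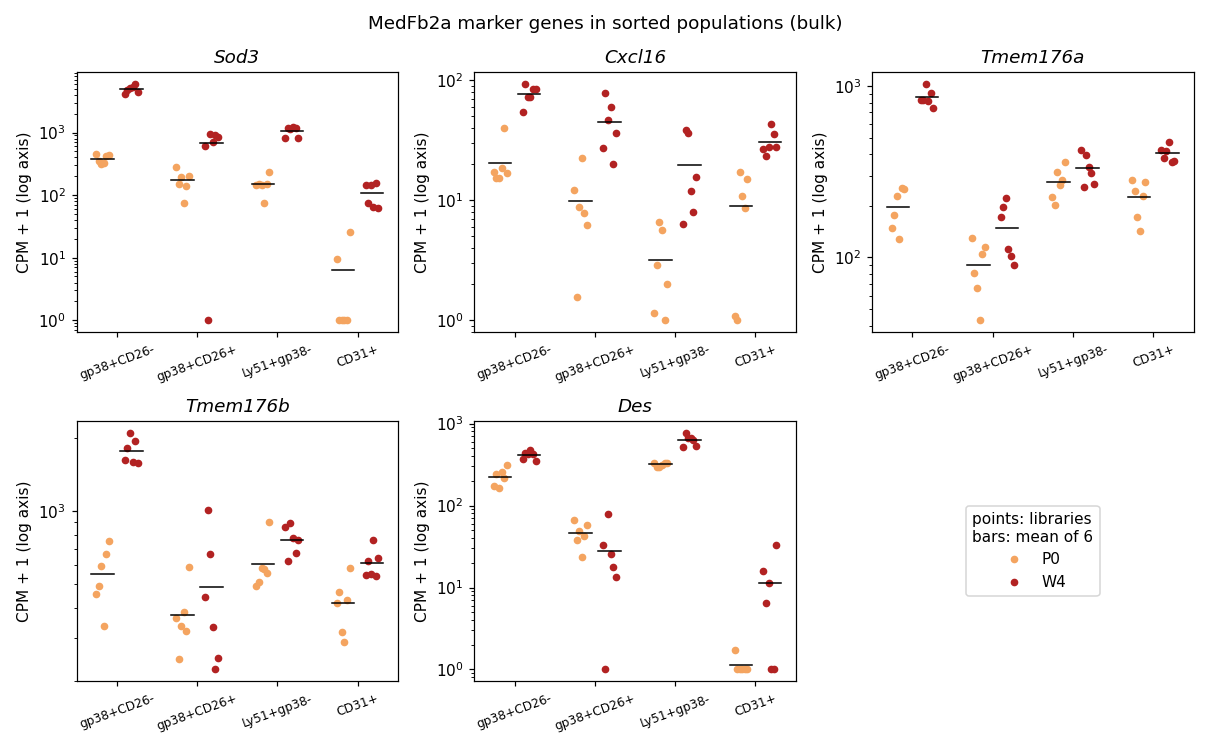
CPM + 1 on a log axis of the 5 marker genes in bulk RNA of 4 sorted populations at P0 and 4 weeks. Points are libraries, 6 per population and age, and bars are their mean. Sod3 of gp38+CD26- cells at 4 weeks (4061 to 6026 CPM) lies above every other population. Des at 4 weeks has a higher mean in Ly51+gp38- than in gp38+CD26- cells, a difference that did not pass.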

How the data were processed

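Single cells were captured with the Chromium Single Cell 3′ kit, which marks strand, and the authors made the UMI counts in Cell Ranger 3.1.0. According to the study's methods, a cell was kept at over 1000 detected genes and below 5% UMIs of mitochondrial genes, cells called doublets by DoubletFinder and clusters of CD45+ cells, of contaminants such as epithelium or of a single replicate were removed, and newborn cells were prefixed with RNAprotect. The newborn file does hold epithelial cells, and its lowest number of detected genes per cell was 876 to 901 by library. The deposited values are raw whole UMI counts, with a deposited subtype label per cell that was used unchanged. The authors deposited bulk data as raw read counts per gene. The submitters' processing notes name STAR 2.5.3a, HTSeq and mm10 without roles, and the strand setting of the bulk counts is not given in the sources used here. Entries of no gene (7.81 to 29.4% of bulk counts) were left out, and 37607 of 39179 gene IDs had a symbol.

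UMIs were summed over the cells of a label and library. Sums over at least 20 cells were tested with edgeR 4.0.16 in R 4.3.3 (filterByExpr, TMM, quasi-likelihood test), with Benjamini-Hochberg adjustment over all genes tested and a threshold of 0.05. The ages were fitted together, E13.5 with 1 library being assumed to vary like the others. Label by age differences had the library as a block, and cell numbers had the NETS total as offset. DESeq2 1.42.0 was an alternative. Shares of cells with a UMI were repeated after thinning to 2000 UMIs per cell, and intervals and floors cover counting error only. Total UMIs per library were 28583048 to 93040640 in the age series and 4978011 to 31418527 in the newborn data. Scripts were tested on simulated data. Python 3.11.15, numpy 2.4.6, pandas 2.3.3 and scipy 1.17.1 were also used.

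MedFb2a, its markers and the 25 gene lists were chosen with earlier results of these data known. Named genes are the markers, 2 to 4 list members with the smallest p, the 10 genes with the largest change in each direction that passed, did not overlap and had a mean of at least 50 CPM in the higher group, and the 25 genes with the highest W4 ratio to the other labels. Gene models without a name, ribosomal and mitochondrial genes were not named. The rule of 10 per direction was applied to the single-cell comparisons, and the bulk data served to look up markers and profile genes. Equal replicate numbers did not pair single-cell libraries: correlations of same-numbered deviations were -0.02, -0.0048 and 0.0139 between ages and -0.313 to 0.0989 between genotypes. Epithelial bulk populations were not used here. Some genes that the rule picked are not reported here.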

Additional observations from a re-analysis of the deposited data

Results flagged for a closer look

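Among 40 groups of 6 bulk libraries (5 markers in 4 populations at both ages), 5 held a library far from the others by Dixon's criterion, where chance alone gives about 1 in 20. Sod3 was 24.3 CPM in the highest library of P0 CD31+ cells, next to 8.46. Sod3 was 0 CPM in the lowest library of W4 gp38+CD26+ cells, next to 610, and that library (replicate 2) held 25702 gene counts. Cxcl16 was 39.3 CPM in the highest library of P0 gp38+CD26- cells, next to 17.6. Tmem176b was 904 CPM in the highest library of P0 Ly51+gp38- cells, next to 584, and Des was 0.739 CPM in the highest library of P0 CD31+ cells, the others being at 0.

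The change from P0 to W4 differed between MedFb2a and MedFb1b, by the edgeR test of the difference itself, in the genes that follow. On the log2 scale the positive differences were 6.85 for Igfbp2, 3.40 for Ltbp2, 3.05 for Thbs4, 2.85 for Id4, 2.62 for Pthlh, 2.49 for Clu, 2.30 for Samd5, 2.27 for Nkd2, 2.24 for Gfra2, 2.21 for Ahr and 0.41 for Sod3. The negative differences were -5.87 for Ifi205, -3.21 for Prss23, -3.12 for Ren1, -2.99 for Cxcl14, -2.84 for Ccl19, -2.63 for Tspan15, -2.53 for Igfbp5, -2.41 for Cfb, -2.39 for Apold1, -0.94 for Tmem176a, -0.92 for Tmem176b and -0.71 for Des. Igfbp2 had 31.5 and 56.4 CPM at P0 and 1.3 and 1.4 at W4 in MedFb2a, and 0 at W4 in MedFb1b, so its fitted value is no bound.

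Between MedFb2a and pericytes the same test passed in a further set of genes. The positive differences were 7.43 for Ltbp2, 5.76 for Col26a1, 5.22 for Clu, 4.42 for Cpxm1, 3.99 for Ntng1, 3.97 for F3, 3.88 for Serpina3n, 3.77 for Gas6, 3.72 for Qprt, 3.65 for Col6a6 and 0.85 for Sod3. The negative differences were -6.12 for Dlk1, -4.57 for Agt, -3.99 for Ednrb, -3.91 for H19, -3.79 for Kcnk3, -3.63 for Mapt, -3.37 for Hcn2 and for Cdh6, -3.28 for Ephx3 and -0.39 for Des. Hcn2 and Ephx3 rose mainly in pericytes, from 6.38 and 4.27 to 79.4 and 85.2 CPM and from 13.9 and 12.01 to 350 and 343.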

How the results depend on the processing

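With DESeq2 the counts of genes past the threshold were 2977 instead of 5488 from P0 to W4, 933 instead of 2411 from E16.5 to P0, 222 instead of 1096 against MedFb1b, 603 instead of 1949 against pericytes, and 1270 instead of 817 for gp38+CD26- against gp38+CD26+ cells. Without the library block the differences from MedFb1b and pericytes numbered 460 and 1259. With the E16.5 libraries summed as 1, an alternative chosen after seeing the data, 1355 genes changed from E16.5 to P0. Leaving out single libraries gave 4157 to 5371 genes from P0 to W4, 1088 to 2324 from E16.5 to P0 (the lowest, 1088 and 1130, without either E16.5 library), 738 to 963 against MedFb1b, 1613 to 1999 against pericytes and 0 to 13 by genotype. The adjusted p of the share over age was 0.00016 to 0.0405 and that by genotype 0.6 to 0.975. With no filter on low counts 12 genes differed by genotype.

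Same-numbered single-cell replicates were not paired by the labels or the correlations. Pairing between bulk populations was not checked, and none was fitted. With the replicate number as a block, 5414 genes changed from P0 to W4, 2465 from E16.5 to P0 and 5 by genotype, and the adjusted p of the share by genotype was 0.65.

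Within the bulk label prefixes, chosen after seeing the data, counts were 51 against gp38+CD26+ in DFCK, 1410 and 440 against Ly51+gp38- in TXCK and DFCK, and 1649 and 1185 from P0 to 4 weeks. Fewer libraries entered each of these fits. Without the shallow W4 library 1100 genes differed from gp38+CD26+ and 2741 from Ly51+gp38-.

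Of 1016 values of named genes under these alternatives, 968 kept direction and side of the threshold, 43 no longer passed, 3 newly passed and 2 turned. Those 2, without P0 replicate 1, were the differences from MedFb1b of Ltbp2 (-0.98 to 4.12 over the libraries left out) and Cxcl14 (-4.94 to 0.44), genes with at most 4.47 CPM at P0. The cause was not tested. The difference of Sod3 from MedFb1b did not pass with DESeq2 (0.39), without the library block (0.38) or without P0 replicate 2 (0.09). By the mean share of cells over the W4 libraries after thinning, MedFb2a stood 2nd of 19 labels for Cxcl16 and 1st for Tmem176b, but with the cells of both libraries pooled its Cxcl16 share of 16.9% lay under 19.05% in mesothelial cells and 17.1% in MedFb1a. The Crkl values rest on 9 to 27 UMIs per newborn library.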
